A study of Mus musculus with 4 samples.

Results

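In 4 spatially barcoded sections of mouse lung, 8 genes of the alveolar type 1 cell, AT1, were followed. These were Ager, Hopx, Aqp5, Rtkn2, Clic5, Pdpn, Akap5 and Gprc5a, chosen by name from the 32285 genes of the count tables with earlier results of these data in view. They were selected on their level in each section, on their pattern over spots beside that of Ager, and on Vaped against Non-Vaped, so those values are given as a description and carry no test. All 8 were found in every table, and all 8 passed the filter on low counts in each comparison. A UMI is a molecular identifier that counts 1 captured RNA molecule, and a level in CPM is the UMIs of a gene for every 1000000 UMIs of the section or region.

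The sections came from C57BL/6J mice, 1 male and 1 female in each group. The Non-Vaped mice, NV, had no vape exposure. The Vaped mice, V, were 6 to 8 weeks old at the start and breathed e-vapor made from ORGNX Peach Ice juice by JUUL pens in whole-body chambers, for 4 hours a day on 5 days a week over 9 weeks. Each section is a single animal and sex cannot be told apart from animal within a group. Where values of all sections are listed together, their order is NV male, NV female, V male, V female.

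AT1 cells are the broad, thin cells that cover most of the alveolar surface and form the wall through which gas passes to the capillaries beneath. The cuboidal alveolar type 2 cells, AT2, make surfactant and can give rise to AT1 cells. Ager encodes RAGE, the receptor for advanced glycation end products, a multiligand receptor of the immunoglobulin superfamily that most tissues hold at low level and that AT1 cells carry in abundance on their basal membrane. Its ligands include S100 proteins and Hmgb1, and for these reasons Ager serves both as an AT1 marker and as a receptor studied in lung injury.

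In mm10, the build named in the submitters' processing notes, Ager lies on chr17:34597862-34600936 on the plus strand and Clic5 on chr17:44188584-44280172, also plus. Hopx lies on chr5:77086988-77115121 on the minus strand, where it overlaps the antisense gene Hopxos, and Aqp5 on chr15:99590782-99594829 on the plus strand. Rtkn2 lies on chr10:67979570-68059740, plus, where it overlaps the antisense gene Gm16212. Pdpn lies on chr4:143267431-143299564, minus, Akap5 on chr12:76324891-76334153, plus, and Gprc5a on chr6:135065651-135084709, plus. These spans are the GENCODE vM21 gene models on GRCm38.

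Promoter windows, from 250 bases before to 50 bases within the RefSeq transcript start on GRCm38.p6, were matched for 6 of the 8 genes, in 7 windows since Hopx has 2. The 4 shown are Ager as the lead gene, Hopx and Clic5 as the 2 members most like it over spots, and Aqp5 as the member least like it. Each runs 5′ to 3′ on the strand of its gene, and capitals mark every CG dinucleotide. They span chr17:34597600-34597899 for Ager, chr5:77115074-77115373 for the upstream start of Hopx, chr17:44188322-44188621 for Clic5 and chr15:99590778-99591077 for Aqp5.
Ager: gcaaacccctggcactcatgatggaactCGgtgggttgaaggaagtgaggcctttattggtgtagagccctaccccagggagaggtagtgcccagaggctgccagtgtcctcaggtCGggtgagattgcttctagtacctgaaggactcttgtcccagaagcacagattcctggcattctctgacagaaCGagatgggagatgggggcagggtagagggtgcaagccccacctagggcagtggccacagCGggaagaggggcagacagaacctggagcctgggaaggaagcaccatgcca
Hopx: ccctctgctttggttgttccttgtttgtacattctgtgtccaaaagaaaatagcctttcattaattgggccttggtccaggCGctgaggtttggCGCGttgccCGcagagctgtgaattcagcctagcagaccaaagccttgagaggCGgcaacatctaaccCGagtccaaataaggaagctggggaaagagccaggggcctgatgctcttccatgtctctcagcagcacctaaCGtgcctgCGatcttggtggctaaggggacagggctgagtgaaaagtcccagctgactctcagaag
Clic5: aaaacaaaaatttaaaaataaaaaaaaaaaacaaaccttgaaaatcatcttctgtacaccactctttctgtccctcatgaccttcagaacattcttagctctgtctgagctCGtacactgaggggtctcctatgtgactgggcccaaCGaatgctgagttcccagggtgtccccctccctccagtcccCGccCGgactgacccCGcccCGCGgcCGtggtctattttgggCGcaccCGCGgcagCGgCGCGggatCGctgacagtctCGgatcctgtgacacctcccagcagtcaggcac
Aqp5: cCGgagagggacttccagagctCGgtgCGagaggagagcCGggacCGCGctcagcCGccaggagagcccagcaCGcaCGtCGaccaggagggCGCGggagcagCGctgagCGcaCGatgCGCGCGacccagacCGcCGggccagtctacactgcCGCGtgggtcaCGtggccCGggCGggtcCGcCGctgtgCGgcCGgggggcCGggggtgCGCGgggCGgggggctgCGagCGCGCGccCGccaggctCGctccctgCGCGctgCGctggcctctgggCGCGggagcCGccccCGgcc

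The Ager window held 4 CG dinucleotides, fewer than the median of 7 over all 32851 mouse windows of the same length, and 68.6% of those windows held at least as many. The Hopx window held 8 and the Clic5 window 16. The Aqp5 window stood apart with 46 CG dinucleotides and a GC content of 79.7%, against a median GC content of 52.7%, and only 1.65% of windows held as many CGs. The RefSeq start used for Aqp5 lies inside the GENCODE span given above, so nearly all of this window falls within that gene model. Motifs of 3 factor families known in alveolar epithelium were looked for on both strands. The TEAD letters GGAATG were found in 0 of the 7 windows of these genes and in 14.7% of all windows, and the AP-1 letters TGANTCA in 0 of 7 and in 7.81%. The NKX2 letters TNAAGTG were found in 1 of 7, the downstream Hopx start at chr5:77095218-77095517, and in 11.5% of all windows. Such matches are letters in a short window and no more, and no binding was measured here.

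The tables held 4933 spots, from 473 (NV female) to 2053 (V female) a section. A spot is a small area of tissue that usually holds several cells of different types. Total UMIs ran from 6957392 (NV female) to 34308556 (V female), and the median per spot from 6259 (V male) to 11355 (V female). Section pairs shared 277 to 1167 barcodes, which are positions of the capture grid, and 0 of these had the same UMI total in both sections. Xist and Ddx3y followed the sex labels in all 4 sections. Spots were divided by clustering on genes that left out all 8 members: clusters low in Sftpc, Sftpb, Tmem100 and Calcrl (below 50% of the level over all spots) are called low-alveolar, and the rest parenchyma. Low-alveolar spots took 23.3%, 22.4% and 23.1% of spots in the NV male, the NV female and the V female, and values of low-alveolar spots keep that order below. Their makeup differed between sections. The cluster richest in heart muscle held 166 of 196, 54 of 106 and 188 of 475 of them, with the cardiac genes at 20203, 22132 and 14501 CPM, while 286 of the 475 in the V female were of a cluster with the 4 club cell genes at 18919 CPM there. The low-alveolar region is thus no single tissue, and its mixture was not the same in each section.

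The V male section stood apart from the other 3. All 1565 of its spots fell in 1 cluster, which was called parenchyma as a whole, so it had 0 low-alveolar spots. Regions were given to clusters and not to single spots, so a small low-alveolar part of this section could not be counted. Its 6 cardiac genes summed to 18.2 CPM against 1377 to 2834 in the parenchyma of the other sections. The submitters label all 4 tissues as upper pulmonary branches. The 4 club cell genes summed to 287 CPM in the V male against 2244 to 12764 in the other whole sections, and the 4 ciliated cell genes to 216 against 259 to 367. Of the ciliated genes Foxj1 and Ccdc153 were at 0 in the V male, while Tppp3 was at 206 and Dynlrb2 at 10.2 CPM, the latter within the range of the others. Mitochondrially encoded genes made up 5.10% of its UMIs, against 9.72% to 10.9% in the other whole sections but 5.33% to 7.71% in their parenchyma. Whole-section values of the V male are therefore parenchyma values, whereas the V female held low-alveolar spots in about the share of the NV sections. Clusters were mostly of 1 section each (1565 of the 1594 spots of the largest cluster were from the V male). A cluster that 3 sections did share, with 37, 45 and 687 spots of the NV male, the NV female and the V female, had Ager at 1846, 1780 and 2408 CPM. Its spots were shallow and of unequal depth, with median UMIs of 1816, 1765 and 4449 against 9741, 10471 and 11355 over those whole sections. Both whole-section and parenchyma values are given below, and the V against NV fold changes of the 8 genes, their ratios to other cells and the list medians are given again without the V male.

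Ager, the receptor, was high in both V sections. Over whole sections its levels were 1591, 1225, 3134 and 1705 CPM. The V male was far above the rest, and the V female exceeded the NV male by a small margin, so that the groups did not overlap. In parenchyma alone the same sections gave 1938, 1853, 3134 and 2651 CPM. The NV pair then lay close together (1896 ± 60.4, SD, n = 2) and below both V sections (2893 ± 341, SD, n = 2), a ratio of 1.53. The edgeR log2 fold change of V against NV was 0.73 ± 0.36 (SE) over whole sections and 0.62 ± 0.17 in parenchyma, and with the V male left out these were 0.35 and 0.52. In spots that hold several cells, fewer cells of a type and less RNA per cell cannot be told apart, and this holds for every level given here.

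**Figure D1:**
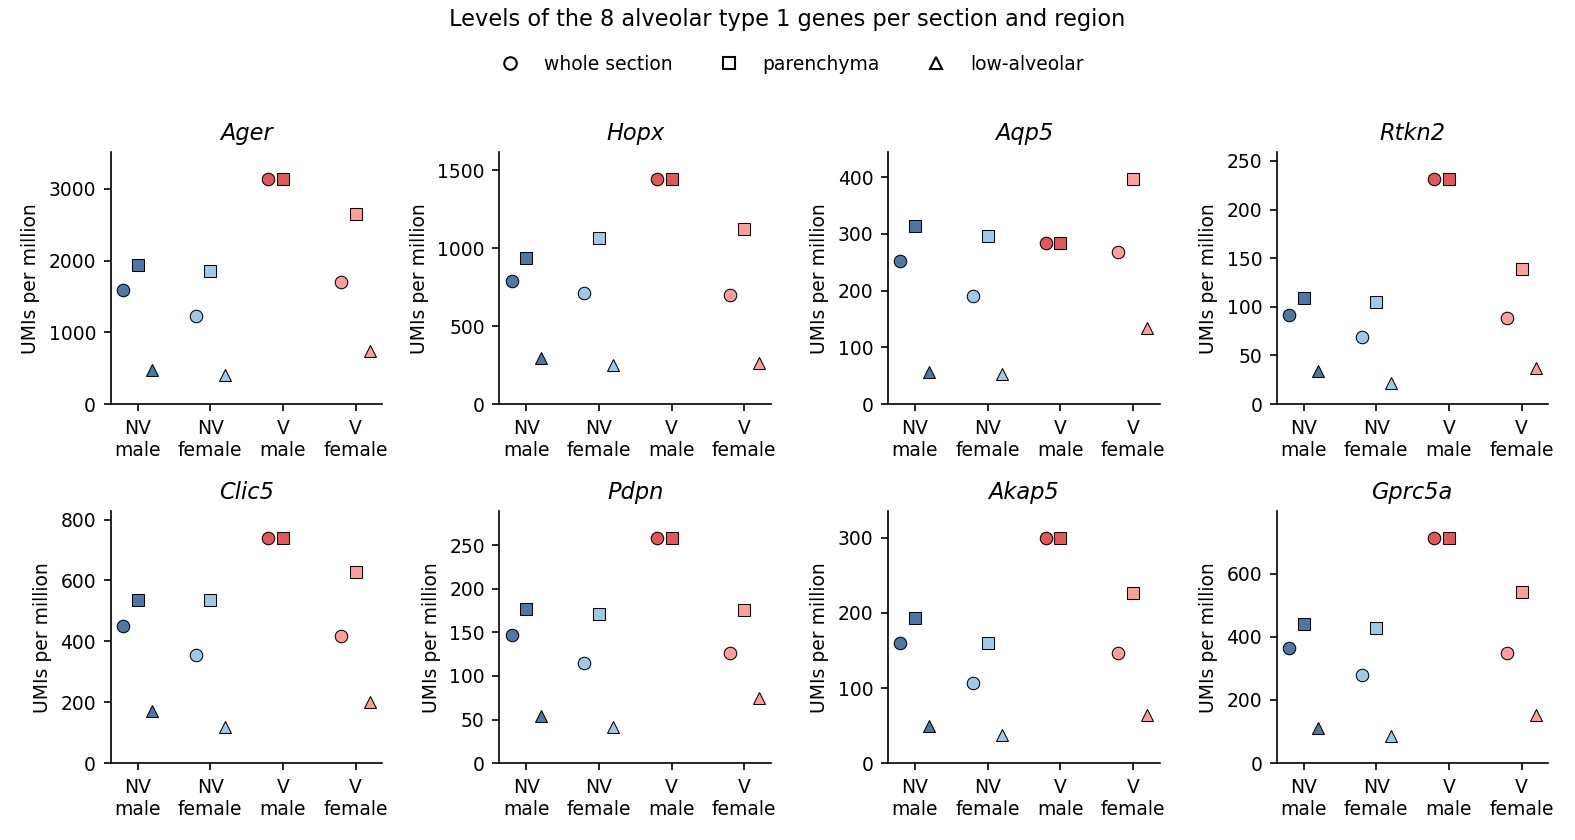
Level of each of the 8 genes in CPM, UMIs of the gene for every 1000000 UMIs (y axis), in the 4 sections (x axis), 1 panel per gene, with circles for the whole section, squares for parenchyma and triangles for low-alveolar spots. The V male has no triangle since it had 0 low-alveolar spots, and its circle and square coincide; Ager squares of the V sections, 3134 and 2651, lie above those of the NV sections, 1938 and 1853.

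Hopx, an atypical homeodomain protein that acts as a cofactor without binding DNA, had levels of 786, 711, 1441 and 698 CPM over whole sections. The V female was thus the lowest of the 4 and the V male the highest, and the groups overlapped. In parenchyma the values were 938, 1063, 1441 and 1121, where both V sections were above both NV sections but the V female exceeded the NV female by a ratio of only 1.05. The fold change in parenchyma was 0.36 ± 0.19 (SE, log2), and 0.20 without the V male. Counts of Hopx and of Rtkn2 may include reads of their antisense neighbours.

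Aqp5, a water channel of the apical membrane of AT1 cells that is also made by airway glands, had the smallest fold of the 8. Its levels were 252, 191, 283 and 267 CPM over whole sections and 313, 296, 283 and 396 in parenchyma. In parenchyma the V male was the lowest section and the V female the highest, so the NV sections lay between them. The parenchyma fold change was 0.17 ± 0.24 (SE, log2), and 0.41 without the V male. Per 100 Ager UMIs in parenchyma, Aqp5 had 16.2, 15.9, 9.05 and 14.9 UMIs, with the V male apart from 3 sections that lay close together.

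Rtkn2 had the largest fold of the 8. Its parenchyma values were 109, 105, 231 and 139 CPM, a V to NV ratio of 1.73. Both V sections were above both NV sections, and most of the gap came from the V male, which exceeded the NV male 2.12-fold while the V female exceeded the NV female 1.33-fold. Over whole sections the V female, at 88.5, fell between the NV female, at 68.8, and the NV male, at 91.2. The fold change was 0.80 ± 0.26 (SE, log2) in parenchyma and 0.41 without the V male.

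Clic5 and Pdpn belong to the cell surface and its actin skeleton: Clic5 is a chloride intracellular channel protein tied to ezrin, and Pdpn, podoplanin or T1α, is an apical sialoglycoprotein. Clic5 had 537, 536, 738 and 628 CPM in parenchyma. The NV sections differed by very little (536 ± 1.38, SD, n = 2), and both V sections were above them, with a fold change of 0.36 ± 0.17 (SE, log2), and 0.26 without the V male. Over whole sections Clic5 had 451, 355, 738 and 418 CPM, where the V female lay between the NV sections. Pdpn had 176, 171, 258 and 176 in parenchyma. Only the V male stood out, and the V female lay between the NV sections within 1 CPM of the NV male. Its fold change was 0.32 ± 0.22 (SE, log2), and 0.05 with the V male set aside. Pdpn also marks lymphatic endothelium, and the 4 lymphatic genes summed to 1030 CPM in the V male against 371 to 453 in the parenchyma of the other sections. Lyve1 alone gave 738 of the 1030, whereas Prox1, which defines lymphatic identity, was lowest in the V male (1.77 CPM against 3.28 to 6.08) and Mmrn1, at 38.7, was within the range of the others. Their part in the Pdpn value was not tested.

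Akap5, a scaffold that anchors protein kinase A near the membrane, and Gprc5a, an orphan receptor induced by retinoic acid, shared the order of sections seen for Ager in parenchyma. Akap5 had 194, 160, 299 and 226 CPM in parenchyma, a ratio of 1.48 and a fold change of 0.57 ± 0.22 (SE, log2), which was 0.38 without the V male. Gprc5a had 442, 428, 712 and 542, a ratio of 1.44 and a fold change of 0.53 ± 0.20, which was 0.35 without it. In both genes the NV sections were the lower pair and the V male the highest section. Over whole sections the V female fell between the NV sections for both, at 146 CPM for Akap5 and 350 for Gprc5a.

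Read as a set in parenchyma, 6 of the 8 genes had both V sections above both NV sections, all but Aqp5 and Pdpn, beside 14.8% of the 14273 genes tested there. Over whole sections it was 2 of 8, Ager and Aqp5, beside 12.6% of 14570 genes. The rule that chose the genes used this contrast, so nothing is read from these counts. The median fold change of the 8 was 0.57 over whole sections and 0.45 in parenchyma (log2), where the median of all genes tested was 0.03 and 0.01. The V mean was the higher for 8 of 8 in both. With the V male left out, the fold changes ran from -0.03 (Hopx) to 0.35 (Ager) over whole sections and from 0.05 (Pdpn) to 0.52 (Ager) in parenchyma.

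None of the 8 passed edgeR's quasi-likelihood test between V and NV, and neither did any other gene: 0% of 14570 genes over whole sections and 0% of 14273 in parenchyma had an adjusted p under 0.05. At an unadjusted p under 0.05 there were 248 and 447 genes, and DESeq2 called 7 and 11. With 2 sections against 2, an exact permutation test of a single gene cannot go below a two-sided p of 0.333.

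Each gene was also set against genes of other alveolar cells, a choice made after the levels were seen. Against the 6 AT2 genes in parenchyma, Ager had 43.3, 42.9, 82.6 and 71.2 UMIs per 100 AT2 UMIs. The AT2 sum itself was lower in the V sections, at 3792 and 3723 CPM against 4480 and 4323, which lifts every gene on this scale. That fall rested largely on Cxcl15, at 1927, 1698, 1214 and 1226 CPM. Both V sections were below both NV sections for 4 of the 6 AT2 genes, and Slc34a2 and Sftpd overlapped between the groups. All 8 genes had both V sections above both NV sections, beside 41.0% of the 14273 genes tested, with ratios from 1.31 (Aqp5) to 2.03 (Rtkn2). Without the V male the ratio of Ager was 1.65 and the lowest was 1.19 (Pdpn). Against the 9 capillary endothelial genes, Ager had 88.7, 76.2, 112 and 109 UMIs per 100, and 6 of 8 genes had both V sections above both NV sections, beside 4.83% of all genes, with ratios from 0.999 (Aqp5) to 1.51 (Rtkn2). Without the V male these ratios were 1.32 for Ager and 0.956 to 1.23 for the others. The rule used this contrast, so these counts too are a description. Of 4 macrophage genes, 3 had both V sections higher in parenchyma, beside 14.8% of all genes, 0 of 4 passed the test, and Mrc1 had a fold change below 0. Their sum was 272 and 488 CPM in the NV sections against 605 and 672, and the V female alone was above both NV sections for 3 of 4. The part of cell makeup in the Ager difference was not tested.

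**Figure D2:**
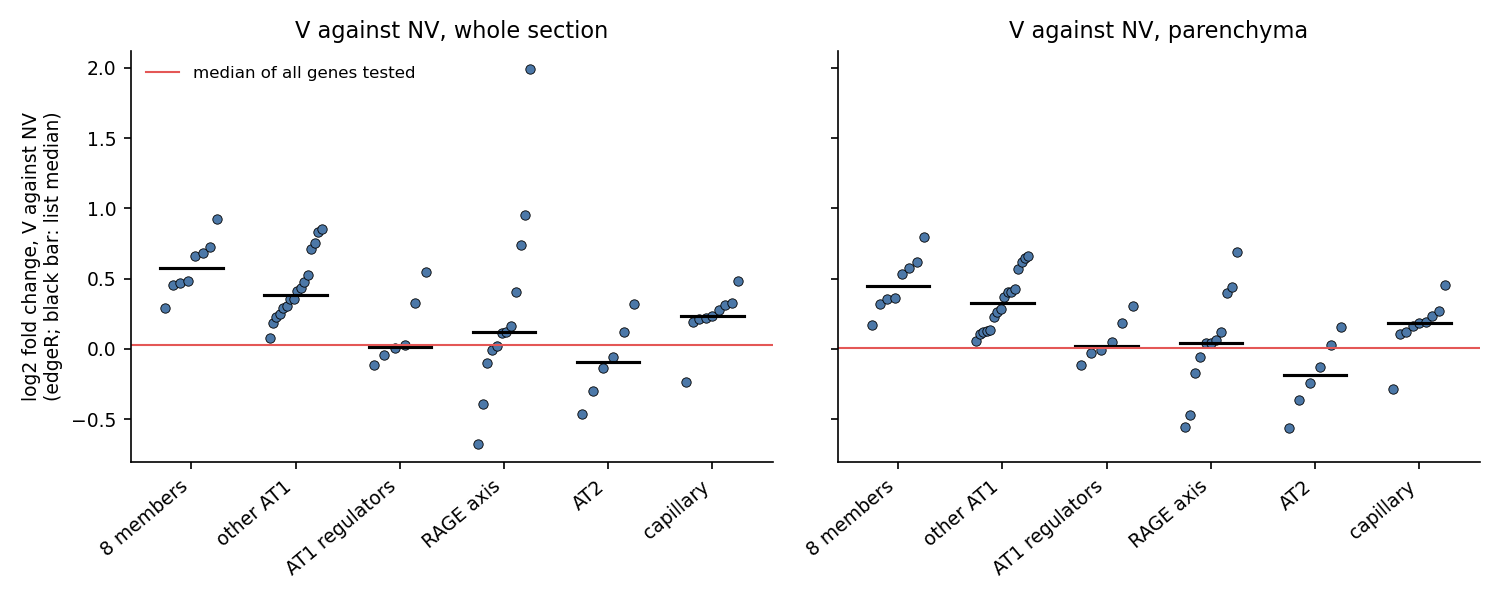
Log2 fold change of V against NV for single genes (points) of 6 gene lists, over whole sections and in parenchyma, with black bars at list medians and the red line at the median of all genes tested (0.03 and 0.01). The 8 AT1 genes and the 16 other AT1 genes lie above 0, AT1 regulators and RAGE-axis genes spread around 0, and the AT2 median is -0.10 and -0.19.

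A wider list of 16 other AT1 genes had the same direction. All 16 had a fold change above 0 over whole sections (median 0.39, log2) and in parenchyma (median 0.33), and 0 of 16 passed the test. Both V sections were above both NV sections for 6 of 16 over whole sections and 9 of 16 in parenchyma, beside the 12.6% and 14.8% of all genes given above. This rested in part on the V male: with the V female alone set against the NV mean (log2 of CPM plus 1), 8 of 16 were above 0 over whole sections (median 0.01) and 11 of 16 in parenchyma (median 0.20), where the medians of all genes tested were -0.08 and -0.04. Krt19, a keratin of simple epithelium, had 118, 127, 181 and 199 CPM in parenchyma and did not overlap. Scnn1g, a subunit of the epithelial sodium channel, had 52.5, 68.7, 112 and 77.3. Timp3, an inhibitor of metalloproteinases, had 824, 978, 1057 and 874, and Itgb6, the β6 integrin, 25.7, 31.4, 25.3 and 33.1, so these last genes overlapped between the groups.

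For transcription factors that govern the AT1 state, the groups overlapped in parenchyma. Of 6 regulators, 3 had a fold change above 0 in parenchyma, with a median of 0.02, and 0 of 6 had both V sections above both NV sections. Without the V male the median was 0.00. Tead1, a partner of Yap1, had 149, 126, 206 and 135 CPM in parenchyma, and Yap1 had 64.9, 62.9, 60.4 and 71.1. Klf5 had 28.7, 36.5, 40.1 and 33.4, and Gata6 50.6, 30.2, 37.1 and 43.3.

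Ligands, partners and proteases of the RAGE axis had fold changes in both directions. Of 11 such genes tested in parenchyma, 1 had both V sections above both NV sections and 4 had both below, beside 14.8% and 18.0% of all genes, and the median fold change was 0.05, or -0.15 without the V male. S100a9, a neutrophil S100 protein, had 90.8, 116, 279 and 55.2 CPM, so the V sections were the highest and the lowest of the 4. S100a4, made by many migratory cells, had 116, 88.2, 63.6 and 82.9, with both V sections the lower. Mmp9, a protease that can shed RAGE, had 19.3, 18.5, 18.3 and 7.59. S100b was almost undetected in parenchyma, at 0.419, 0.760, 0.0842 and 5.18, and was not tested there.

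Most of the 6 listed AT2 genes were lower in V parenchyma. In parenchyma 4 of 6 had both V sections below both NV sections, beside 18.0% of all genes, and 0 of 6 passed the test. Without the V male 5 of 6 were below both NV sections, with a median of -0.16. Over whole sections 0 of 6 had both V sections below both NV sections, beside 2100 of 14570 genes. The surfactant genes Sftpc and Sftpb, used to define the regions, were not in this list. In parenchyma both overlapped between the groups, Sftpc at 33449, 27851, 36068 and 29085 CPM and Sftpb at 4183, 3364, 3966 and 3399. Cxcl15, a chemokine of lung epithelium, had 1927, 1698, 1214 and 1226 CPM. Etv5, a factor that maintains AT2 cells, had 232, 174, 155 and 160, whereas Sftpd, surfactant protein D, had 724, 702, 894 and 691 and the phosphate transporter gene Slc34a2 921, 1030, 947 and 1023. Of the 9 capillary genes, 8 had a fold change above 0 in parenchyma (median 0.18, log2), 1 had both V sections above both NV sections, and 0 passed the test, with 6 of 9 above 0 (median 0.02) without the V male. Gpihbp1, which holds lipoprotein lipase on capillaries, had 195, 286, 352 and 300 CPM and Plvap, a diaphragm protein, 278, 391, 420 and 379. Cdh5, the endothelial cadherin, had 436, 476, 515 and 459, and the peptide hormone gene Apln 60.7, 44.1, 36.6 and 49.2. The 6 cardiac genes had a median fold change of -1.70 there, with both V sections below both NV sections for 5 of 6, and of -0.74 without the V male.

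The low-alveolar spots held far less of all 8 genes. Ager had 469, 402 and 734 CPM there, or 24.2%, 21.7% and 27.7% of the parenchyma level of the same section. The edgeR fold change within sections was -1.60 ± 0.13 (SE, log2) for Ager, -1.52 ± 0.14 for Hopx, -1.69 ± 0.17 for Aqp5 and -1.52 ± 0.13 for Rtkn2. It was -1.38 ± 0.13 for Clic5, -1.18 ± 0.14 for Pdpn, -1.52 ± 0.11 for Akap5 and -1.59 ± 0.12 for Gprc5a. All 8 of 8 were called lower, where 18.9% of 14029 genes were called lower and 23.5% higher. The regions were cut by clustering these same spots, and 5 of the 8 had been seen lower as a sum before, so the size of the fall is a description of where the genes lie. The V male could not enter it.

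**Figure D3:**
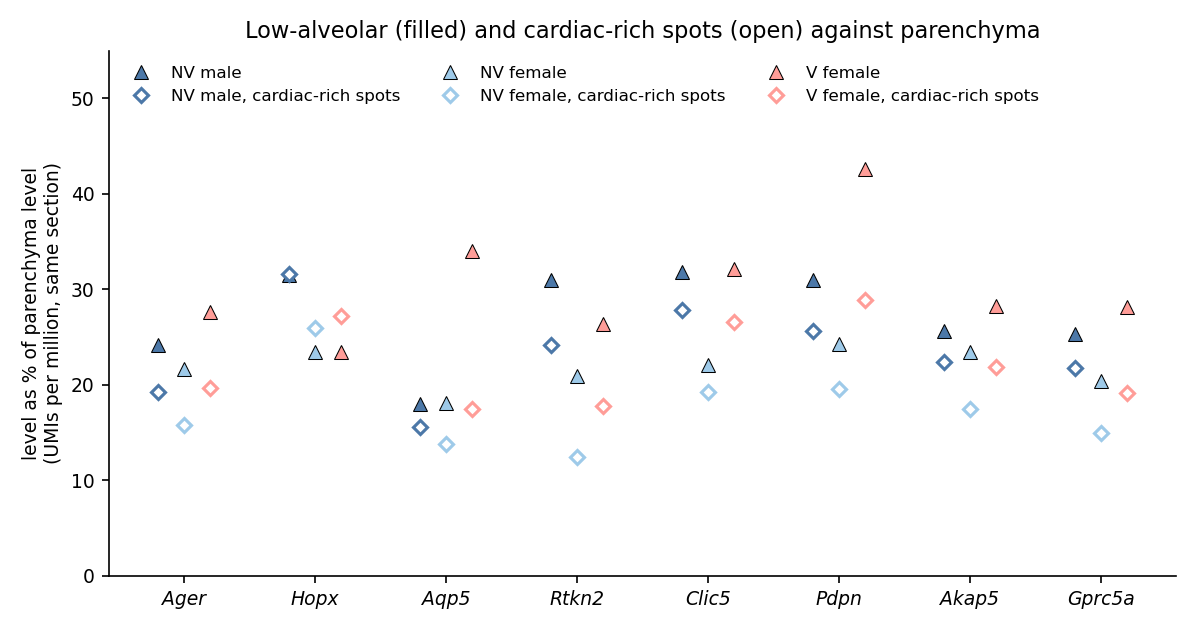
Level of each of the 8 genes in low-alveolar spots (filled triangles) and in cardiac-rich spots (open diamonds) as a percentage of its parenchyma level in the same section (y axis), for the 3 sections with low-alveolar spots. All values lie below 50%, and Aqp5 and Pdpn of the V female, 34.0% and 42.6%, are the highest triangles.

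Members differed in how far they fell. In the V female, Aqp5 kept 34.0% of its parenchyma level in low-alveolar spots, against 18.0% in the NV male and 18.1% in the NV female, and Pdpn kept 42.6% against 30.9% and 24.2%. Of the gland and basal cell genes, Bpifa1 was high in the same section. The 5 of the list summed to 7514 CPM in the whole V female section against 57.6 to 161 in the NV sections, and Bpifa1 alone gave 7466. There Muc5b was at 39.4 CPM, while the basal cell genes Krt5, Krt14 and Trp63 were low, at 4.72, 1.31 and 3.09 CPM. The part of these genes in the Aqp5 and Pdpn values was not tested. The other 6 members kept 20.4% to 32.1% over the 3 sections.

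The other AT1 genes were lower in low-alveolar spots for 16 of 16, from -0.41 (Timp3) to -2.29 (Igfbp2, which binds insulin-like growth factors), with a median of -1.31 (log2). AT2 genes were lower for 6 of 6 (median -1.84) and capillary genes for 9 of 9 (median -1.12). Over all 14029 genes tested, 18.9% were called lower and 23.5% higher. Low-alveolar clusters were defined by low Sftpc, Sftpb, Tmem100 and Calcrl, so these falls are in part set by that rule and describe where the genes lie. The regulators split, with Nkx2-1 (-1.63), Wwtr1 (-0.56) and Tead1 (-0.32) lower and Gata6 (0.44) higher. Of the RAGE axis, 9 of 12 were lower and 2 higher, S100b (2.59) and Mmp9 (0.98).

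Spots rich in heart muscle RNA gave a check on how much Ager is counted where AT1 cells should be few. These were spots with at least 20000 CPM from the 6 cardiac genes, a limit set after their levels were seen, and there were 39, 28 and 20 in the 3 sections with low-alveolar spots. Ager had 373, 293 and 520 CPM there, or 19.3%, 15.8% and 19.6% of parenchyma. The surfactant gene Sftpc, which heart muscle does not make, stood at 15.8%, 11.8% and 16.2% in the same spots. Ager of the low-alveolar spots, at 21.7% to 27.7%, was above the level in the cardiac-rich spots of the same section in each of the 3. The cardiac-rich spots were picked for their heart muscle RNA, so their lower Ager is in part set by that choice. Hopx, which is also expressed in heart muscle, kept 31.6%, 25.9% and 27.2%, more than Ager in each section. This was not particular to Hopx. Clic5 (27.8%, 19.2% and 26.6%), Pdpn (25.6%, 19.5% and 28.9%) and Akap5 (22.3%, 17.4% and 21.9%) also kept more than Ager in each section. Aqp5, Rtkn2 and Gprc5a did not. The part of heart muscle in the Hopx value was not tested.

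At equal depth, nearly every parenchyma spot held Ager. After each spot was thinned to 3000 UMIs, which left out 61, 49, 202 and 224 shallower parenchyma spots, a UMI of Ager was present in 99.1% of 585 NV male spots (95% exact Clopper-Pearson interval 98.0% to 99.7%), 97.5% of 318 NV female spots (95.1% to 98.9%), 99.9% of 1363 V male spots (99.6% to 100%) and 99.8% of 1354 V female spots (99.4% to 100%). A share this close to its ceiling says little of the level, and the number per spot says more. The thinned mean was 5.86, 5.69, 9.36 and 7.79 Ager UMIs per spot, with medians of 5, 5, 9 and 7, so a typical spot of either V section held more Ager than one of either NV section. The central 90% of spots ran from 2 to 11 UMIs in the NV male and from 4 to 16 in the V male. The intervals cover counting error only.

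**Figure D4:**
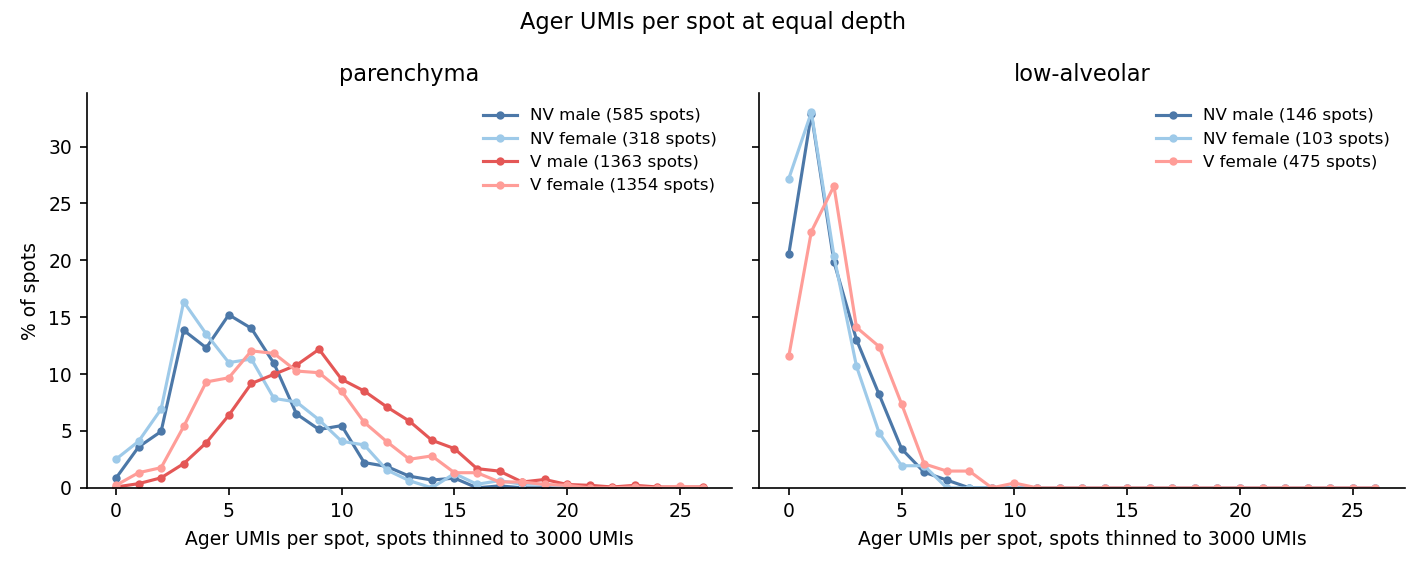
Share of spots in percent (y axis) by number of Ager UMIs per spot after thinning to 3000 UMIs (x axis), for parenchyma and low-alveolar spots of each section. Parenchyma curves of the V sections peak further right (medians 9 and 7) than those of the NV sections (5 and 5), and low-alveolar curves lie at the left (medians 1, 1 and 2).

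Thinned low-alveolar spots held Ager in 79.5% of 146 NV male spots (72.0% to 85.7%), 72.8% of 103 NV female spots (63.2% to 81.1%) and 88.4% of 475 V female spots (85.2% to 91.2%). Cardiac-rich spots, thinned likewise, held it in 80.6%, 60.7% and 75%, where the last shares rest on 36, 28 and 20 spots. The NV male shares of the low-alveolar and the cardiac-rich spots were thus close, although the level of Ager was higher in the former (469 against 373 CPM). Median depth before thinning was 5630, 25229 and 32536 UMIs in low-alveolar spots and 27043, 43022 and 39388 in the cardiac-rich spots. Without thinning, the low-alveolar shares were 89.3%, 99.1% and 100% and the parenchyma shares 98.0%, 97.0%, 99.7% and 98.4%.

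The sparser members separated the sections more. Rtkn2 was present in 25.5% (22.0% to 29.2%), 21.7% (17.3% to 26.6%), 49.1% (46.4% to 51.8%) and 33.3% (30.8% to 35.9%) of thinned parenchyma spots. Aqp5 was present in 60% (55.9% to 64.0%), 54.1% (48.4% to 59.7%), 56.1% (53.4% to 58.7%) and 67.5% (64.9% to 70.0%). In the V male, then, Rtkn2 was found in the most spots of any section while Aqp5 was found in about as many as in the NV sections. Pdpn was present in 39.0%, 41.5%, 51.8% and 40.9%, with only the V male apart. Rtkn2 in cardiac-rich spots was present in 8.33% of 36, 0% of 28 and 0% of 20, where so few spots allow no close limit.

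Over spots, Ager rose and fell most closely with Hopx. Among 2866 genes with at least 50 CPM in every section, likeness was measured as Pearson's r with Ager over the spots of a section (log scale, each spot scaled to 10000 UMIs), and genes were ordered by their lowest r in the 4 sections. Hopx came first, with r = 0.58 over 842 spots, 0.61 over 473, 0.32 over 1565 and 0.60 over 2053. Next came Prdx6, a peroxiredoxin (0.49, 0.49, 0.24, 0.46), Icam1, an adhesion molecule (0.51, 0.53, 0.23, 0.42), the keratin Krt7 (0.48, 0.47, 0.21, 0.44) and Clic5 (0.49, 0.48, 0.20, 0.48). Tspan8, Pmp22, Timp3, Rgcc and Scnn1a, an epithelial sodium channel subunit, filled the first 10, with lowest r of 0.20 to 0.19. The median r over all 2866 genes was 0.16, 0.10, 0.03 and 0.09. Spots of a section share its library, and depth and region differ between them, so these values carry no p.

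**Figure D5:**
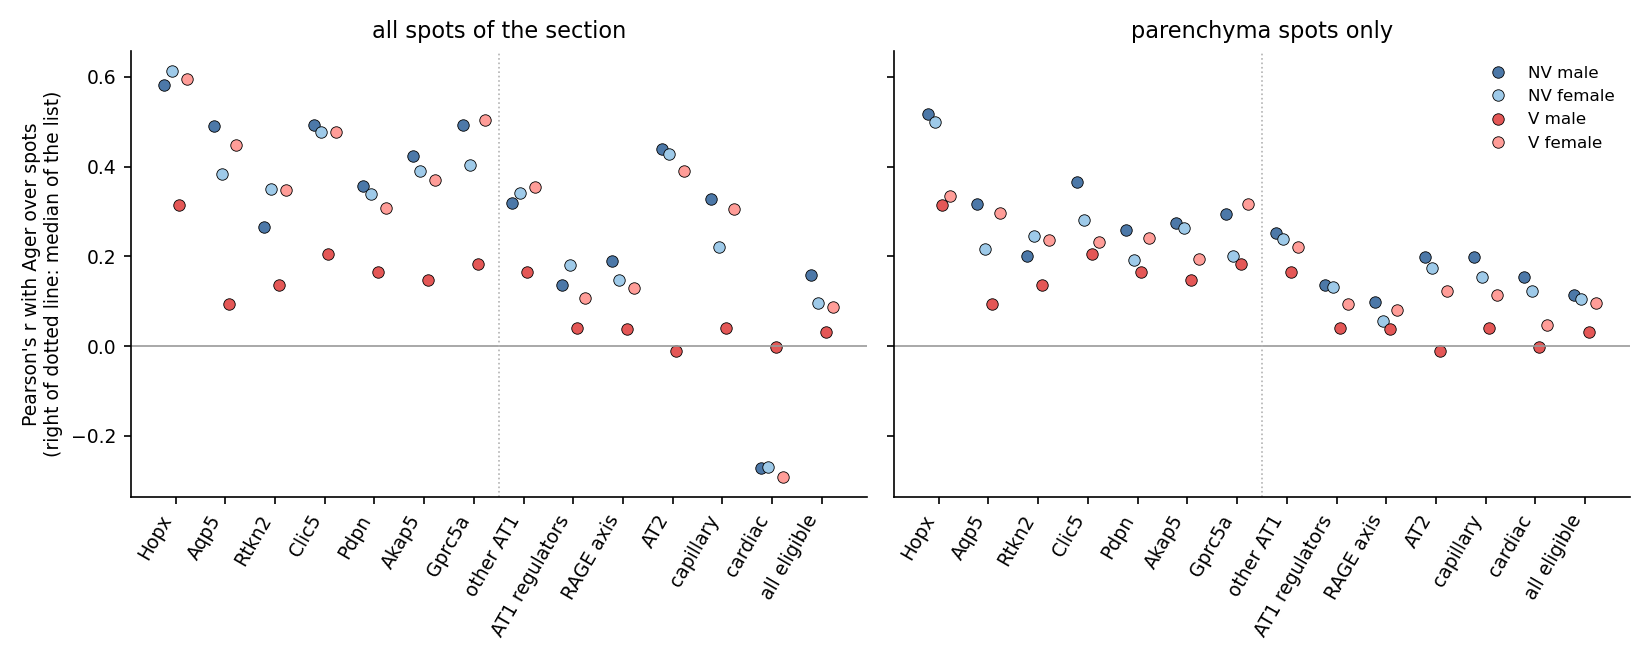
Pearson r with Ager over spots (y axis) for the 7 other AT1 genes and for the medians of gene lists, in each of the 4 sections, over all spots and over parenchyma spots. Hopx is highest in each section (0.58, 0.61, 0.32 and 0.60 over all spots), and the V male is the lowest section for every one of the 7 genes.

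Of the other members, Clic5 ranked 5, Gprc5a 12, Pdpn 20, Akap5 31 and Rtkn2 39 of 2866, and Aqp5 ranked 122. Aqp5 had r with Ager of 0.49, 0.38, 0.09 and 0.45, so its low rank came from the V male. The V male, with 0 low-alveolar spots and the lowest median depth, gave the lowest r for each member over spots that were not thinned. Restricted to parenchyma, Hopx ranked 1, Clic5 5, Gprc5a 10, Pdpn 18, Akap5 27, Rtkn2 32 and Aqp5 120, and the first 7 genes of the order were the same. All V male spots are parenchyma, so its r did not change, and it gave the lowest r of each member in both orders. The likeness of the orders was thus largely set in advance and is no check within parenchyma. In parenchyma thinned to 3000 UMIs, r of Hopx with Ager was 0.23, 0.33, 0.20 and 0.17, and r of Aqp5 0.23, 0.05, 0.09 and 0.15. At that equal depth the V male was lowest only for Gprc5a (0.115, 0.143, 0.112 and 0.218). For Pdpn it was the highest section (0.060, 0.082, 0.108 and 0.079). All 28 of 28 pairs among the 8 genes had r above 0 in each section, with medians of 0.36, 0.36, 0.13 and 0.31 over all spots. In parenchyma the medians were 0.24, 0.25, 0.13 and 0.20. The share of pairs above 0 among all genes was not counted, and the median r with Ager over the 2866 genes was itself above 0 in each section. Nothing is therefore read from this count.

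The lists moved with Ager to different degrees. The median r of the 16 other AT1 genes was 0.32, 0.34, 0.16 and 0.35 over all spots and 0.25, 0.24, 0.16 and 0.22 in parenchyma. That of the AT2 genes was higher over all spots in the sections with low-alveolar spots (0.44, 0.43 and 0.39) and -0.01 in the V male, and in parenchyma it was 0.20, 0.18, -0.01 and 0.12. Within parenchyma, then, the median r was higher for other AT1 genes than for AT2 genes in every section. Cardiac genes had median r of -0.27, -0.27, 0.00 and -0.29 over all spots. The genes with the lowest r over all spots were mt-Co1, mt-Nd3, mt-Co2, mt-Atp6 and mt-Co3, encoded in mitochondria. Their r ran from -0.50 to -0.25 over both NV sections and from -0.64 to -0.51 in the V female, but from -0.18 to 0.02 in the V male. In parenchyma alone mt-Co3 had r of 0.06, 0.31, -0.18 and -0.29, so the sign was not the same in every section there.

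Relative to Ager itself, some members kept their ratio and others did not. In parenchyma Gprc5a had 22.8, 23.1, 22.7 and 20.4 UMIs per 100 Ager UMIs, the steadiest of the 7. Clic5 had 27.7, 28.9, 23.6 and 23.7, and Hopx 48.4, 57.4, 46.0 and 42.3, both lower in the V sections. Pdpn had 9.09, 9.25, 8.22 and 6.62. Rtkn2 had 5.62, 5.65, 7.38 and 5.25, and only in the V male did it exceed the NV ratio. Ranked by parenchyma level, 4 other members had the sections in the same order as Ager, as did 4.74% of all genes tested, a count read from the contrast that chose them.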

How the data were processed

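Poly(A) RNA of lung cryosections was captured on Visium slides (10x Genomics), and per the submitters' processing notes the reads were processed with Space Ranger and Seurat 4.0.3 on mm10. The deposited files hold the authors' UMI counts per gene and spot, 1 table per section, raw and whole. Spots outside the tables were not analysed here. The study itself tested over spots. Here the animal is the replicate: counts were summed per section or region, with 2 sections a group.

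The 8 genes and all lists (other AT1, AT1 regulators, RAGE axis, AT2, capillary, cardiac, macrophage, lymphatic, ciliated, club, and gland and basal) were chosen with earlier results of these data known. Genes named from the other AT1, regulator, RAGE-axis, AT2 and capillary lists were the 2 with the highest and the 2 with the lowest whole-section fold change. Igfbp2, Nkx2-1, Wwtr1, Mrc1, Sftpc, Sftpb and the ciliated, lymphatic, and gland and basal genes were named after their values were seen. The 10 genes most like Ager and the 5 least like it were named.

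Sums were tested with edgeR 4.0.16 (TMM, filterByExpr, quasi-likelihood F test in R 4.3.3, Benjamini-Hochberg adjustment over all genes tested), and a gene was called where its adjusted p was below 0.05 and its log2 fold change exceeded 0.25 in size. The contrast of low-alveolar spots with parenchyma kept section as a block over the 3 sections with both regions. Regions came from Leiden clustering (scanpy 1.11.5, leidenalg 0.10.2, resolution 0.8, 8 clusters, 1000 variable genes, 30 components, 20 neighbours) without the 111 list genes and 1808 genes of X and Y. DESeq2 1.42.0, other size factors, no filter, other resolutions, each section left out, other denominators and other thinning depths were alternatives. The comparisons of lists without the V male and the shares of all genes per AT2 or capillary UMI were added after the data were seen. The test was also run on counts drawn with known changes. These were larger than the V against NV changes of the 8 genes. Their spread was smaller than that between sections in V against NV (coefficient of variation 0.39 over whole sections and 0.28 in parenchyma). That run therefore cannot tell how well the test finds V against NV changes of the size given here. Levels in CPM are UMIs of the 3′ end and were not divided by gene length, so they were compared within a gene or as ratios across sections. Total UMIs per section, 6957392 to 34308556, set the precision. A replicate here is a different animal, and the labels have all sections processed together.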

Additional observations from a re-analysis of the deposited data

Results flagged for a closer look

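In 2 cases the sexes moved in opposite directions between V and NV, with 1 section per sex and group, so the differences were not tested. Over whole sections Hopx had a log2 ratio of V to NV of 0.87 in males and -0.03 in females, a gap of 0.90. In parenchyma Aqp5 had -0.14 in males and 0.42 in females, a gap of -0.57. In parenchyma the Hopx values of males and females, 0.62 and 0.08, had the same sign.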

How the results depend on the processing

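The fold change of Ager between V and NV stayed above 0 in 14 of 14 alternatives over whole sections and 16 of 16 in parenchyma. These alternatives reuse the same sections, and dropping the fold change threshold cannot alter the fold change. The rule that chose the genes used this contrast, so the tally is a description. The fold change of Ager was 0.84 per AT2 UMI and 0.42 per capillary UMI in parenchyma (log2), denominators chosen after seeing the data. The count of genes called, 0 in both, was 7 and 11 with DESeq2 and 7 in parenchyma with no filter on low counts. With 1 section left out at a time it ran from 0 to 811 over whole sections and from 0 to 794 in parenchyma. The highest counts came without the V female, and 21 and 35 came without the V male; a lone section is then assumed to vary like the other group, and the cause was not tested. Hopx over whole sections turned to -0.027 without the V male, and was 0.80 when the V female was left out. Aqp5 in parenchyma turned to -0.11 without the V female (range -0.11 to 0.41) and to -0.0018 per capillary UMI. The replicate numbers coincide with sex, and same-numbered sections deviated together with a correlation of 0.377, which 2 pairs cannot establish as a pairing. With the replicate block the calls were 0 and 0, and Ager was 0.70 over whole sections and 0.62 in parenchyma. The contrast of low-alveolar spots with parenchyma called 5953 genes, 4237 with DESeq2, 6889 with no filter and 4413 to 5925 with a section left out, and all 8 members were called lower in each. Shares of spots with a UMI moved with the thinning depth (85 of 88 at 1000 UMIs), so they hold only at the depth given. In parenchyma thinned to 3000 UMIs, the mean r with Ager over the sections moved from its value over all spots for 7 members.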
